A study of Mus musculus with 20 samples.

Results

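The Hox genes, the homeobox transcription factors that lie in 4 clusters and are numbered by paralog group from the anterior to the posterior end of the body, were described across 20 arrays of mouse skin and skin tumors. The members were all 37 symbols of the Hoxa, Hoxb, Hoxc and Hoxd series, chosen by name, a rule that uses no measured value. Of these, 33 had at least 1 probeset of their own among the 18193 genes measured: 9 of the HoxA, 9 of the HoxB, 7 of the HoxC and 8 of the HoxD cluster. Hoxa6 and Hoxc12 had no probeset, and Hoxb8 and Hoxd4 were represented only by probesets shared with the neighbors Hoxb7 and Hoxd3.

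The arrays comprised normal, wild type skin from FVB mice aged 2 months (n = 5), tumors from mice with Trp53 inactivated in stratified epithelia (Trp53 tumors, n = 7) and tumors from mice with both Rb1 and Trp53 inactivated there (Rb/Trp53 tumors, n = 8), also of the FVB strain. By the histological subtype in the labels, 6 tumors were poorly differentiated, 3 undifferentiated, 2 spindle cell and 4 mixed. The undifferentiated and spindle cell tumors were treated as 1 class (n = 5). The labels gave no tumor age, no body site for skin or tumors, and no statement that each tumor came from its own mouse. Normal skin was wild type, so deletion and tumor cannot be told apart. The sources used here do not give the promoter that drives the deletion.

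In the embryo, Hox genes are switched on in the order of their place in the cluster, and their combination sets the identity of each segment along the head-to-tail axis. Adult skin keeps part of that code: dermal fibroblasts in particular hold a Hox pattern that records the body site they came from, and Hoxc13 has a separate role in the hair follicle, where it switches on hair keratins. The proteins bind DNA together with the Pbx, Meis and Pknox (TALE) homeodomain partners. Hox levels are known to differ between body sites, and here site and group cannot be told apart.

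The RefSeq promoter table of build GRCm38.p6 held windows for 22 of the 37 genes. They are shown for 4 members whose levels in tumors are described below, as the 250 bases before the annotated start, 5′ to 3′ on the gene's strand, with CG dinucleotides in capitals because the CpG-rich Hox clusters are regulated by Polycomb and Trithorax complexes. The window of Hoxa7 lies at chr6:52218574-52218823 on the minus strand, that of Hoxc4 at chr15:103034145-103034394, that of Hoxd8 at chr2:74704365-74704614 and that of Hoxd9 at chr2:74697513-74697762, the last 3 on the plus strand.
Hoxa7: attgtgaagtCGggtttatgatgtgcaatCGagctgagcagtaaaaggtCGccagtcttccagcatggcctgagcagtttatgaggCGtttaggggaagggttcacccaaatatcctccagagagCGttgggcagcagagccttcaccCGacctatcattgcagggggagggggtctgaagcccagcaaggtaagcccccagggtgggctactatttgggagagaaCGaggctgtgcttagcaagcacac
Hoxc4: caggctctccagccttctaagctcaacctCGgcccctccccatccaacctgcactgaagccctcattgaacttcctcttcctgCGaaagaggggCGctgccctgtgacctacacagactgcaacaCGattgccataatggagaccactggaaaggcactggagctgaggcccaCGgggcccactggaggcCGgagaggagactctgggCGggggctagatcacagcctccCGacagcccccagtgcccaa
Hoxd8: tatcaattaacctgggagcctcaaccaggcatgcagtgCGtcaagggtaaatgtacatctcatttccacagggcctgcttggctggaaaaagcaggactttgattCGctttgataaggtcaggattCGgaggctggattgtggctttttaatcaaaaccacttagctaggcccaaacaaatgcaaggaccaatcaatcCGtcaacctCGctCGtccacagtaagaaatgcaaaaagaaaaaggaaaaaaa
Hoxd9: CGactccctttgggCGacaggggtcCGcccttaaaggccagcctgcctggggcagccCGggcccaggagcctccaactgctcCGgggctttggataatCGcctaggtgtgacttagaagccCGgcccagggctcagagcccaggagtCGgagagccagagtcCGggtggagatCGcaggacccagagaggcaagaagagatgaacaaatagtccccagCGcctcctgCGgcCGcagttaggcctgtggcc
These stretches held 7, 8, 6 and 13 CG dinucleotides. Their full windows of 300 bases, which run 50 bases past the start, held 9, 9, 6 and 20. Over the 24 windows of 300 bases that belonged to members, the median was 14.5 CG dinucleotides (range 4 to 45), against a median of 7 in all 32851 windows, and 20 of the 24 were above that median. The Pbx-Hox motif TGATTNAT, searched on both strands, was present in 2 of the 24 member windows (Hoxa2 and Hoxd11), or 8.33%, and in 3.22% of all windows.

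Most members were dim on these arrays. The values are log2 RMA expression, and only Hoxa7, Hoxb2, Hoxc9, Hoxd8 and Hoxd9 had a mean above 6.98, the median of all gene means. Dim values compress differences between samples. The median value of each array was between 5.59 and 5.63 in skin and between 5.65 and 5.75 in tumors. The spread between tumors was wide for some members: 16 of the 33 had a range over 2 log2 units across the 15 tumors, compared with 32.7% of all genes, and 12 had a range under 1. The median SD across tumors was 0.51 for the members and 0.40 for all genes. In 27 of the 33 members the SD was larger among tumors than among the 5 skin samples.

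**Figure D1:**
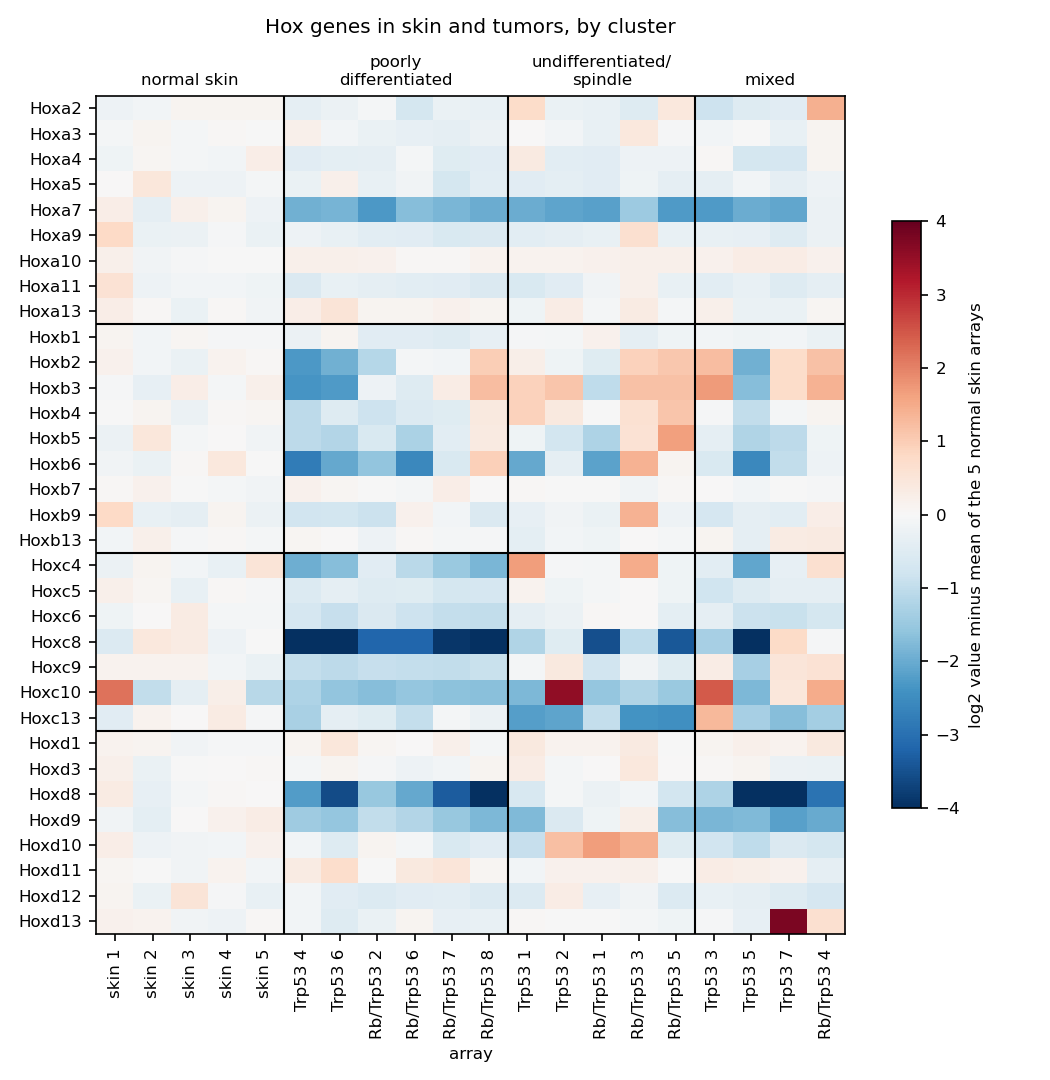
Each row is a Hox gene, ordered by cluster and paralog number, each column an array, and the color gives the log2 value minus the mean of the 5 normal skin arrays, with colors saturated beyond 4 log2 units. The blue rows for Hoxa7, Hoxc8 and Hoxd8 in poorly differentiated tumors and the dark red cell of Hoxd13 in Trp53 tumor 7 (9.0) stand out.

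Tumors of both genotypes were first compared with normal skin. Of the 33 members, 8 were lower in tumors and 1 was higher (limma, adjusted p under 0.05), next to 18.0% of all genes lower and 17.7% higher. The lower group comprised Hoxa7, Hoxa11, Hoxc5, Hoxc6, Hoxc8, Hoxd8, Hoxd9 and Hoxd12, and the higher gene was Hoxa10. The members lower in tumors made up 24.2% of the list, a share near that of all genes. The median log2 fold change was -0.29 over the 33 members and 0.02 over all genes. On the brightest probeset of each gene, which the fits used, no member separated skin from all tumors without overlap, whereas 6.9% of all genes lay wholly above and 6.38% wholly below skin.

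Of the 8 genes that fell, 5 belonged to the middle of the clusters. In paralog groups 5 to 8, which pattern the thorax, 5 of 9 members were lower, with a median log2 fold change of -0.57. On the brightest probesets, 0 of 10 members of groups 1 to 4, which pattern the hindbrain and neck, passed the limma test. Likewise 0 reached an unadjusted p below 0.05. A dimmer Hoxa3 probeset was lower in tumors, with a log2 difference of -0.45 (SE 0.11, limma adjusted p = 0.0041 over all probesets). In groups 9 to 13, which pattern the lower trunk to the tail and the limbs, 3 of 14 were lower and 1 was higher. By cluster, 3 of 7 HoxC, 3 of 8 HoxD and 2 of 9 HoxA genes were lower. Of the HoxB genes, 0 of 9 were called by limma in either direction, also at an unadjusted p below 0.05. These counts stand beside 18.0% of all genes lower and 17.7% higher. The lower shares of groups 9 to 13 (21.4%) and of HoxA (22.2%) were near that of all genes.

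Hoxa7, which in human keratinocytes restrains differentiation genes, had log2 values of 8.73, 8.07, 8.65, 8.56 and 8.24 in normal skin 1 to 5. In the 15 tumors its lowest value was 6.14, the median 6.47 and the highest 8.22. A single tumor, Rb/Trp53 tumor 4, reached the range of skin, and the other 14 were at or below 6.99. The log2 fold change was -1.88 (SE 0.23, limma adjusted p = 3.1e-06).

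Hoxc8, a gene of thoracic vertebrae and ribs, was at 8.20, 9.15, 9.08, 8.54 and 8.70 in normal skin 1 to 5. In tumors it ranged from 3.01 through a median of 5.56 to 9.50. The tumors were widely spread and overlapped with skin only through Trp53 tumor 7 (9.50), Trp53 tumor 2 (8.24) and Rb/Trp53 tumor 4 (8.67). The log2 fold change was -2.76 (SE 0.90, limma adjusted p = 0.022). Leaving out normal skin 2 or normal skin 3 ended the call (adjusted p = 0.053 and 0.052).

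Hoxd8 and Hoxd9, neighbors in the HoxD cluster with roles in trunk and limb patterning, were both lower in tumors. Hoxd8 was between 8.92 and 9.59 in skin and had a lowest value of 4.98, a median of 7.21 and a highest value of 9.16 in tumors (log2 fold change -2.08, SE 0.67, limma adjusted p = 0.021). Hoxd9 was between 7.62 and 8.31 in skin, and in tumors ran from 5.83 through a median of 6.46 to 8.24 (log2 fold change -1.35, SE 0.31, limma adjusted p = 0.0020). For both genes most tumors were below skin while a few undifferentiated/spindle tumors lay inside the skin range. Hoxc6, which acts in thoracic patterning, fell by 0.57 on the log2 scale (SE 0.17, limma adjusted p = 0.010). With the median of its probesets the Hoxc6 difference was -0.76 (adjusted p = 0.20), and with the most variable one -0.83 (adjusted p = 0.20). Hoxc5, Hoxa11 and Hoxd12 each fell by 0.37 on the log2 scale (limma adjusted p = 0.036, 0.026 and 0.039). The Hoxc5 call was also lost with either of these choices (adjusted p = 0.14 and 0.68) and in 4 of 20 fits that left out 1 array (normal skin 1, 2, 4 or 5), and the Hoxd12 call in 9 of 20, with a difference of -0.25 (adjusted p = 0.18) when normal skin 3 was left out.

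Hoxc13, the hair keratin regulator, did not pass this test. Its values were 5.70, 6.32, 6.19, 6.51 and 6.14 in normal skin 1 to 5 and between 3.73 and 7.46 in tumors, with a median of 4.89. The log2 fold change was -1.11 (SE 0.45, limma adjusted p = 0.063). Trp53 tumor 3 stood at 7.46, above every skin sample, and without it the adjusted p was 0.0097.

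Hoxa10, a posterior gene, was the only member called higher, by 0.17 on the log2 scale (SE 0.06, limma adjusted p = 0.037) at values between 3.31 and 3.74. Its other probeset gave a log2 difference of -0.63 (SE 0.40), so that the direction depended on the probeset, and the call ended when normal skin 2, 3, 4 or 5 was left out.

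**Figure D2:**
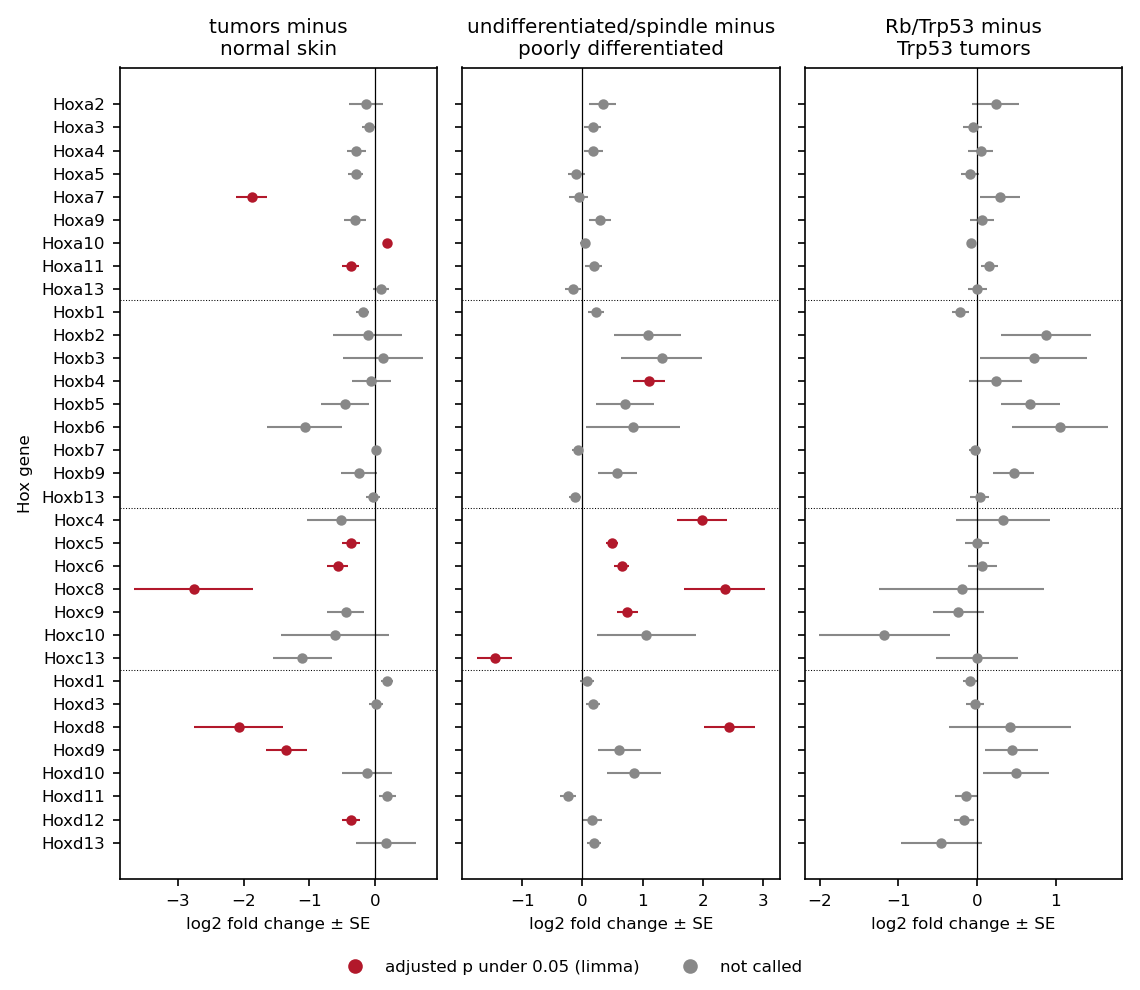
The log2 fold change (x axis) and its standard error are drawn for each of the 33 Hox genes (y axis) in 3 comparisons, with red points for an adjusted p under 0.05 in limma. In tumors against skin 8 red points lie left of 0, in undifferentiated/spindle against poorly differentiated 7 lie right of it, and there are 0 red points between the genotypes.

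Without normal skin 1, 4 rather than 8 members were lower in tumors. Hoxa11, Hoxc5, Hoxd8 and Hoxd12 were then no longer called, with a Hoxd8 log2 fold change of -1.99 (adjusted p = 0.051) and a Hoxa11 change of -0.23 (adjusted p = 0.14). Whole skin also holds muscle, fat and dermis: all 10 skeletal muscle markers were lower in tumors (mean log2 value per array 13 to 13.7 in skin, 5.17 to 8.73 in tumors), as were all 6 measured adipocyte markers, all 5 melanocyte markers and 4 of 8 dermal fibroblast markers (12.5 to 12.9 in skin, 8.50 to 12.7 in tumors). The part of these cell types in the Hox differences was not tested, and in bulk tissue fewer cells of a type and less RNA per cell cannot be told apart.

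Poorly differentiated tumors had the most members below skin. Each histological class was set against the same 5 skin arrays in 1 model of 4 groups, so that the 3 comparisons share these arrays. In poorly differentiated tumors 11 members were lower than in skin and 0 higher (limma, adjusted p under 0.05; 1 higher at an unadjusted p below 0.05), beside 19.6% of all genes lower and 19.2% higher. Here 10 members lay wholly below skin and 0 wholly above, beside 14.4% and 14.3% of all genes. In undifferentiated/spindle tumors 3 members were lower and 0 higher (2 higher at an unadjusted p below 0.05), beside 20.2% and 22.0% of all genes. In mixed tumors 6 were lower and 1, Hoxa10, was higher, beside 21.5% and 21.9% of all genes.

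In poorly differentiated tumors the largest difference was that of Hoxc8, with a lowest value of 3.01, a median of 4.51 and a highest value of 5.57, all below the 8.20 of the lowest skin sample (log2 fold change -4.29, SE 0.86, limma adjusted p = 0.00061). Hoxd8 ran from 5.17 through 6.46 to 7.73 in the same tumors, likewise below all skin samples (log2 fold change -2.80, SE 0.48, limma adjusted p = 0.00015). Hoxa7 ran from 6.14 through 6.56 to 6.74 and was separated from skin (log2 fold change -1.93, SE 0.28, limma adjusted p = 2.3e-05). Values that differed less were those of Hoxc4, a gene of the cervical and upper thoracic region, which ran from 5.10 through 5.48 to 6.61 against 6.84, 7.18, 6.95, 6.78 and 7.59 in normal skin 1 to 5 (log2 fold change -1.42, SE 0.43, limma adjusted p = 0.015). Hoxd9 ran from 6.20 through 6.53 to 7.02 against 7.88, 7.62, 8.03, 8.19 and 8.31 in skin (log2 fold change -1.41, SE 0.29, limma adjusted p = 0.00081). Hoxc9, which sets thoracic motor neuron identity, was nearly constant in these tumors, from 6.44 through 6.53 to 6.61, against 7.62, 7.62, 7.62, 7.37 and 7.22 in skin (log2 fold change -0.96, SE 0.26, limma adjusted p = 0.0075). Hoxc6 fell by 0.83, Hoxc5 by 0.55, Hoxa11 by 0.45, Hoxd12 by 0.42 and Hoxb1 by 0.31 on the log2 scale (limma adjusted p = 5.0e-05, 0.00060, 0.022, 0.047 and 0.038), and 3 of these calls were lost when single arrays were left out. Leaving out normal skin 1 ended the Hoxa11 call (log2 fold change -0.30, adjusted p = 0.074), and the calls of Hoxd12 and Hoxb1 were lost in 12 and 8 of 20 fits that each left out 1 array, with Hoxd12 at -0.29 (adjusted p = 0.16) when normal skin 3 was left out.

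In undifferentiated/spindle tumors Hoxa7 was also below all skin samples, at 6.48, 6.34, 6.28, 6.99 and 6.17 in Trp53 tumors 1 and 2 and Rb/Trp53 tumors 1, 3 and 5 (log2 fold change -2.0, SE 0.29, limma adjusted p = 2.0e-05). Hoxc13 was at 3.96, 4.05, 5.22, 3.78 and 3.73 in the same order, all below the lowest skin sample at 5.70 (log2 fold change -2.02, SE 0.44, limma adjusted p = 0.0011). Hoxd9 was the third gene, with 3 of its 5 values below all skin samples (log2 fold change -0.79, SE 0.30, limma adjusted p = 0.042). That call was lost in 6 of 20 fits that left out 1 array, with the difference at -0.55 when Trp53 tumor 1 and at -0.57 when Rb/Trp53 tumor 5 was left out (adjusted p = 0.13 for each), and also when normal skin 1, 3, 4 or 5 was left out. Without Rb/Trp53 tumor 3, 5 rather than 3 members were lower. For Hoxc8 the log2 fold change was -1.92.

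In mixed tumors Hoxd8 was at 8.03, 4.98, 5.25 and 6.29 in Trp53 tumors 3, 5 and 7 and Rb/Trp53 tumor 4 (log2 fold change -3.12, SE 0.53, limma adjusted p = 0.00012). Hoxd9 was at 6.17, 6.24, 5.83 and 5.98 (log2 fold change -1.95, SE 0.32, limma adjusted p = 8.7e-05). These were below all skin samples for both genes. Hoxc6 was at 6.98, 6.46, 6.45 and 6.61 against 7.15 to 7.66 in skin (log2 fold change -0.70, SE 0.14, limma adjusted p = 0.00055), and Hoxc5 at 5.15, 5.42, 5.58 and 5.59 against 5.66 to 6.16 (log2 fold change -0.51, SE 0.12, limma adjusted p = 0.0022). Hoxa7 fell by 1.65 and Hoxd12 by 0.46 on the log2 scale (limma adjusted p = 0.00027 and 0.044, the latter lost in 11 of 20 fits that left out 1 array), and Hoxa10 was higher by 0.24 (limma adjusted p = 0.026). Hoxc8 was widely spread in this class, at 7.39, 3.36, 9.50 and 8.67.

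To ask whether the Hox genes differ with histological grade, undifferentiated/spindle tumors (n = 5) were compared with poorly differentiated tumors (n = 6). Of the 33 members 7 were higher and 1 was lower in undifferentiated/spindle tumors (limma, adjusted p under 0.05), beside 12.7% of all genes higher and 9.9% lower. HoxC genes made up most of these: 5 of 7 HoxC members were higher (Hoxc4, Hoxc5, Hoxc6, Hoxc8 and Hoxc9) and 1, Hoxc13, was lower. The other 2 were Hoxb4 and Hoxd8, and on the brightest probesets 0 of 9 HoxA members were called by limma, also at an unadjusted p below 0.05. The median log2 fold change was 0.29 over the members, 0.74 over the HoxC genes and 0.01 over all genes. In 5 members all undifferentiated/spindle tumors lay above all poorly differentiated ones and in 0 members below, beside 7.43% and 6.89% of all genes.

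Hoxd8 was at 8.61, 9.16, 9.01, 9.13 and 8.52 in Trp53 tumors 1 and 2 and Rb/Trp53 tumors 1, 3 and 5, against 5.17 through 6.46 to 7.73 in poorly differentiated tumors (log2 fold change 2.44, SE 0.43, limma adjusted p = 0.0017). The undifferentiated/spindle values thus lay close to those of skin, and the groups did not overlap. Hoxc4 was at 8.74, 7.02, 6.98, 8.56 and 6.89 in the same order, against 5.10 through 5.48 to 6.61 in poorly differentiated tumors (log2 fold change 1.99, SE 0.41, limma adjusted p = 0.0048). In Trp53 tumor 1 and Rb/Trp53 tumor 3 it exceeded every skin sample, the highest of which was 7.59.

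The other 3 non-overlapping members were also HoxC genes. Hoxc6 was at 6.97, 7.10, 7.39, 7.36 and 6.95 against 6.34 through 6.44 to 6.74 (log2 fold change 0.65, SE 0.12, limma adjusted p = 0.0025). Hoxc9 was at 7.40, 7.89, 6.73, 7.36 and 7.01 against 6.44 through 6.53 to 6.61 (log2 fold change 0.74, SE 0.17, limma adjusted p = 0.0097). Hoxc5, a gene of the cervicothoracic region, was at 6.08, 5.77, 5.86, 5.98 and 5.77 against 5.23 through 5.43 to 5.6 (log2 fold change 0.49, SE 0.10, limma adjusted p = 0.0046). On its other probesets the groups overlapped, with log2 differences of 1.94 and 0.89 (limma adjusted p = 0.013 and 0.0070 over all probesets).

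For Hoxc8 the groups overlapped. It was at 7.54, 8.24, 5.22, 7.71 and 5.33 in Trp53 tumors 1 and 2 and Rb/Trp53 tumors 1, 3 and 5, against 3.01 through 4.51 to 5.57 in poorly differentiated tumors (log2 fold change 2.36, SE 0.67, limma adjusted p = 0.025). Rb/Trp53 tumors 1 and 5 lay within the poorly differentiated range. The call was lost without Rb/Trp53 tumor 3, Trp53 tumor 1, Trp53 tumor 2 or Trp53 tumor 6, with adjusted p between 0.054 and 0.063. Within Rb/Trp53 tumors alone the Hoxc8 log2 fold change was 1.06 (adjusted p = 0.35), and the term for a different grade effect in the 2 genotypes was -3.56 (SE 1.0, limma adjusted p = 0.55). Hoxb4, known for expanding blood stem cells, was higher by 1.11 on the log2 scale (SE 0.26, limma adjusted p = 0.011). Its groups overlapped, at 6.52 to 7.66 against 5.49 to 6.92 in poorly differentiated tumors. The other Hoxb4 probeset gave 0.62 (SE 0.22, limma adjusted p = 0.082 over all probesets). Within Rb/Trp53 tumors alone the Hoxb4 difference was 0.92 (limma adjusted p = 0.13).

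Hoxc13 was the one member that was lower. Its values were 3.96, 4.05, 5.22, 3.78 and 3.73 in the undifferentiated/spindle tumors, against 4.89 through 5.75 to 6.09 in the poorly differentiated ones (log2 fold change -1.46, SE 0.30, limma adjusted p = 0.0042). Only Rb/Trp53 tumor 1 at 5.22 overlapped with the poorly differentiated group. Its direction was opposite to that of the 5 HoxC genes that were higher. Foxn1, the hair and epidermal differentiation factor that lies downstream of Hoxc13 in mouse hair follicles, fell by 1.23 on the log2 scale in the same comparison (SE 0.19, limma adjusted p = 0.00081). It was 1 of 3 lower genes among 19 hair shaft genes, of which 16 were not called. All 8 keratinocyte markers were lower too, with a median log2 fold change of -6.24. A link between Hoxc13 and Foxn1 was not tested.

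**Figure D3:**
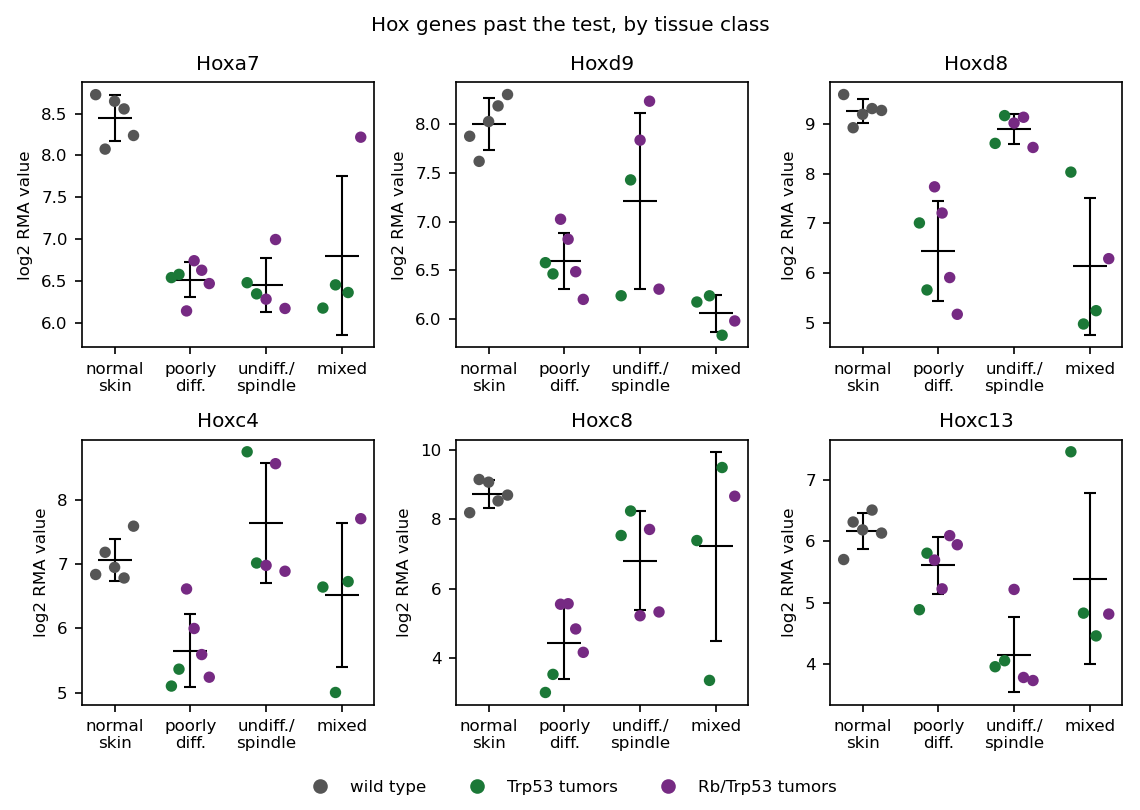
Log2 RMA values (y axis) are shown for each array by tissue class (x axis) in 6 Hox genes, colored by genotype, with the class mean and SD as bars. Hoxa7 is below skin in every tumor class apart from Rb/Trp53 tumor 4 (8.22), Hoxd8 and Hoxc4 are low in poorly differentiated but not in undifferentiated/spindle tumors, and Hoxc13 is lowest in the undifferentiated/spindle class.

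Other properties differed between these classes as well. All 8 keratinocyte markers were lower in undifferentiated/spindle tumors (mean log2 value per array 5.28 to 9.59, against 11.7 to 13.2 in poorly differentiated tumors), 6 of 8 macrophage and 5 of 8 endothelial markers were higher, and of the 8 dermal fibroblast markers Pdgfra alone was higher (per array 11.8 to 12.7 against 8.51 to 12.1). The Actb 3′ minus 5′ difference, a sign of RNA quality, was 0.24 to 0.38 against 0.42 to 0.82. With it as a covariate, 4 of the 7 higher members were still called (Hoxc4, Hoxc5, Hoxc6 and Hoxd8) and Hoxc13 was still lower. In normal skin the Actb difference was 0.50 to 1.19, above the undifferentiated/spindle range. The comparisons with skin were not fitted with this covariate. The part of stromal cells was not tested. When mixed tumors were counted with the undifferentiated/spindle class, 3 members were higher (Hoxc4, Hoxc8 and Hoxc9) and 0 lower, and the Hoxd8 difference was 1.22 log2 units (adjusted p = 0.30). When they were counted with the poorly differentiated class, 5 members were higher, and Hoxc8 (1.25, adjusted p = 0.51) and Hoxc9 (0.36, adjusted p = 0.56) were not called.

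Between the genotypes, Rb/Trp53 tumors (n = 8) against Trp53 tumors (n = 7), 0 of 33 members were called by limma, next to 0.011% of all genes higher and 0.022% lower. Likewise 0 members reached an unadjusted p below 0.05, and 0 were called by the methods' t-test. The differences that were largest in size were those of Hoxc10, a hindlimb gene, at -1.18 (SE 0.83), Hoxb6, a rib patterning gene, at 1.05 (SE 0.60), and Hoxb2, a hindbrain gene, at 0.88 (SE 0.57), all with a limma adjusted p of at least 0.95. With standard errors of this size, differences of 1 log2 unit in these genes were not resolved. Hoxa7 was between 6.17 and 6.58 in Trp53 tumors and between 6.14 and 8.22 in Rb/Trp53 tumors, and the groups overlapped.

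Some Hox genes lay on both sides of skin among the tumors. Trp53 tumors 4, 5 and 6 were low in the hindbrain genes Hoxb2 (5.12, 5.50 and 5.49) and Hoxb3 (4.38, 5.04 and 4.48), whereas the skin samples were at 7.16 to 7.61 for Hoxb2 and 6.42 to 7.03 for Hoxb3. The same 3 tumors had the lowest Hoxc8 values among the Trp53 tumors (3.01, 3.36 and 3.53). Trp53 tumor 5 was of the mixed class and the other 2 were poorly differentiated. Several other tumors lay above skin, up to 8.67 for Hoxb2 and 8.46 for Hoxb3 in Trp53 tumor 3. For Hoxb2, Rb/Trp53 tumors 1 and 2 were also below skin (6.95 and 6.29). For Hoxb3, Rb/Trp53 tumors 1 and 6 were below it (5.75 and 6.24).

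Posterior genes were high in a few arrays each. Hoxc10 was at 8.76 in Trp53 tumor 2, 7.69 in Trp53 tumor 3 and 6.71 in Rb/Trp53 tumor 4, and also at 7.41 in normal skin 1, where the other 4 skin samples lay between 4.12 and 5.47. Hoxd13, which patterns digits and external genitalia, was at 9.0 in Trp53 tumor 7, while the other tumors lay between 4.73 and 5.88. Its other probeset was also highest in that tumor, at 10.4, followed by Rb/Trp53 tumor 4 at 7.81, and lay between 4.15 and 5.25 in the remaining tumors. Hoxd10, active in the hindlimb and lumbar cord, was at 5.85, 6.30 and 6.04 in Trp53 tumor 2 and Rb/Trp53 tumors 1 and 3, against 4.44 to 4.90 in skin.

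Normal skin 1 and Rb/Trp53 tumor 3 shared some raised posterior genes, but not all. Hoxa9, a gene of the lumbar region and of leukemia, was at 7.09 and 6.93 in these 2 arrays and between 5.69 and 6.24 in the other 18. Hoxb9 was at 5.50 and 6.10 against 3.84 to 4.97 elsewhere, and Hoxa11 at 5.12 and 4.75 against 3.93 to 4.43. The probeset of Hoxa10 that was not used for the fits showed the same 2 arrays at 5.91 and 5.81 and the others between 2.82 and 3.71. Other posterior genes did not follow: in normal skin 1 and Rb/Trp53 tumor 3, Hoxc10 was at 7.41 and 4.01 and Hoxd10 at 4.90 and 6.04. These arrays belonged to different tissues, and their body site was not given.

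Probesets of 1 gene did not always give the same answer, and the brightest one, used for the fits, was not always the one that varied. Of 11 members with several probesets, 7 had another probeset with a larger SD. For Hoxa5, which acts in lung development, the brightest probeset was at 6.98, 7.44, 6.78, 6.77 and 6.91 in skin and between 6.28 and 7.18 in tumors (log2 fold change -0.30, SE 0.12, limma adjusted p = 0.054). Its other probeset was at 8.49, 8.83, 8.84, 9.0 and 8.75 in skin and ran from 4.08 through 4.75 to 7.28 in tumors. That probeset placed all 15 tumors below all skin samples, with a log2 difference of -3.69 (SE 0.43, limma adjusted p = 1.6e-06 over all probesets). Trp53 tumor 1 (7.25) and Rb/Trp53 tumors 4 (7.28) and 3 (6.11) were the highest tumors.

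The same held for Hoxa9, where the second probeset gave a log2 difference of -2.48 between tumors and skin (SE 0.64, limma adjusted p = 0.0045 over all probesets) and the brightest one -0.31 (SE 0.17, limma adjusted p = 0.16). On the second probeset Rb/Trp53 tumor 3 was at 8.81, above skin samples that lay between 6.37 and 8.68. For Hoxc6 another probeset gave a larger grade difference, with 8.76, 7.29, 8.09, 8.09 and 7.30 in undifferentiated/spindle tumors against 5.63 to 5.96 in poorly differentiated ones (log2 difference 2.14, SE 0.24, limma adjusted p = 0.00010 over all probesets). Of 4 probesets of Hoxa3, 1 was higher in undifferentiated/spindle tumors by 1.05 (SE 0.29, limma adjusted p = 0.026 over all probesets). The brightest and the others gave 0.17, 0.14 and -0.02. The second probeset of Hoxa5 had a grade difference of 1.09 (SE 0.38, limma adjusted p = 0.077 over all probesets). For Hoxd8 both probesets were close, at -2.08 and -1.90 between tumors and skin and at 2.44 and 2.25 between the grades. A probeset shared by Hoxd4 and Hoxd3 was higher in undifferentiated/spindle tumors by 0.77 (SE 0.14, limma adjusted p = 0.0027 over all probesets), and for that shared by Hoxb8 and Hoxb7 the difference was 0.29 (SE 0.45).

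**Figure D4:**
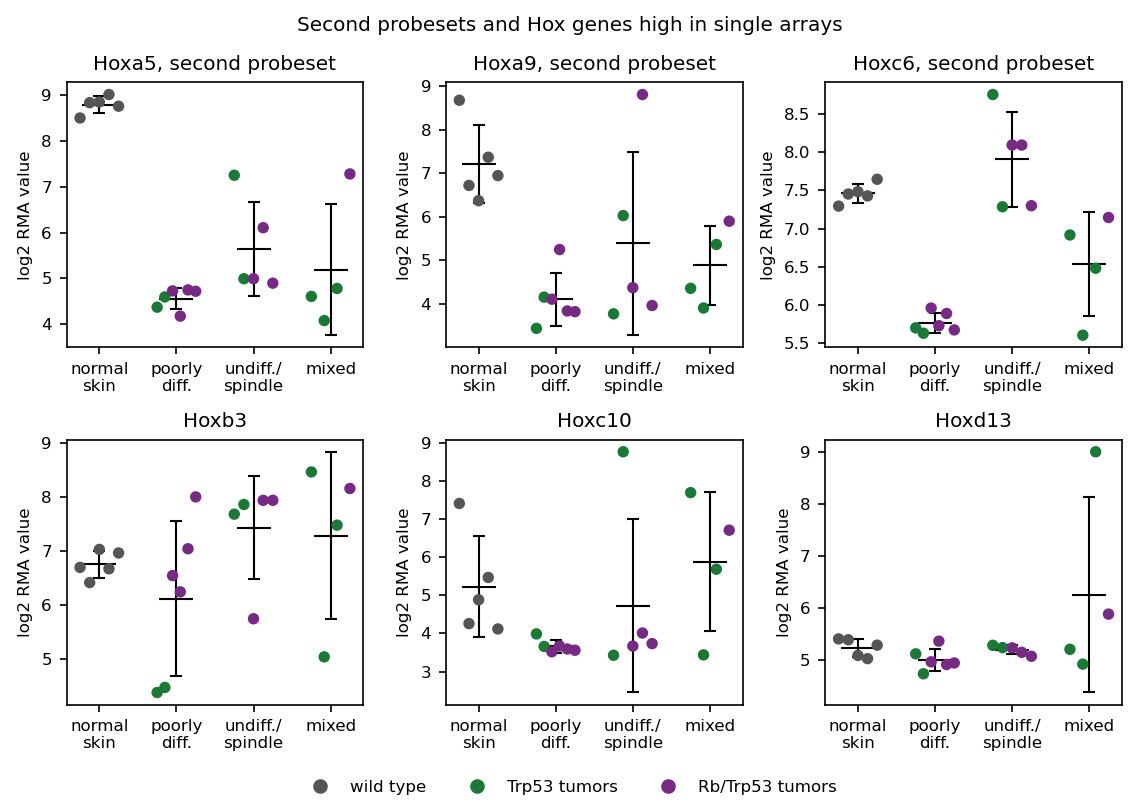
Log2 RMA values (y axis) by tissue class (x axis) are shown for probesets not used in the fits of Hoxa5, Hoxa9 and Hoxc6 and for 3 further Hox genes, with class mean and SD. Hoxa5 in the upper left panel separates the 5 skin samples from all tumors, and Hoxc10 and Hoxd13 are high in single arrays such as Trp53 tumor 2 (8.76) and Trp53 tumor 7 (9.0).

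Genes that act with or on the Hox clusters were counted in the same fits, where 17.7% of all genes were higher and 18.0% lower in tumors than in skin. Among 8 measured TALE partners, Pbx2 was higher in tumors than in skin (0.38) and Pknox2 (-1.59), Meis3 (-0.72) and Pbx4 (-0.62) were lower, all by log2 fold change at a limma adjusted p under 0.05. Between the grades Pknox2 alone was called, higher by 0.85 in undifferentiated/spindle tumors (limma adjusted p = 0.019). Among 20 regulators, 5 were higher and 4 lower in tumors, shares near those of all genes. The largest rise was that of Gmnn, geminin, a replication inhibitor that also binds Hox proteins (2.47, SE 0.21, limma adjusted p = 1.8e-08), and the Trithorax-complex genes Ash2l (0.84) and Men1 (0.77) were higher. The retinoic acid degrading enzyme Cyp26b1 was lower (-1.97), as were Cdx2 (-0.65) and the methyltransferase gene Kmt2a (-0.57). Between the grades 1 of the 20 regulators was higher and 4 were lower in undifferentiated/spindle tumors, beside 12.7% and 9.9% of all genes. Retinoic acid is a direct inducer of Hox genes, but its part in the Hox differences was not tested. Its synthesizing enzyme Aldh1a3 (-4.77) and Cyp26b1 (-2.59) were lower and its receptor Rarb was higher (1.80) in undifferentiated/spindle tumors. The H3K27 demethylase genes Kdm6b (-0.86) and Kdm6a (-0.68) were lower there. The other 15, among them Rara, Rarg, Aldh1a2 and Cyp26a1, were not called.

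Other developmental transcription factors of skin and trunk, 12 of 14 measured, showed 0 higher and 3 lower members in tumors against skin (Satb1 -2.88, Tbx15 -1.59 and Msx2 -0.78 by log2 fold change). Against poorly differentiated tumors, 5 were higher in undifferentiated/spindle tumors, with Emx2 (2.89), Tbx15 (2.59), Tbx18 (2.43) and Prrx1 (2.26) in front. In that comparison 3 were lower, Pitx1 (-2.85), Dlx5 (-1.53) and Dlx3 (-0.99), beside 12.7% of all genes higher and 9.9% lower. Prrx1, Tbx15 and Tbx18 are mesenchymal patterning genes, and Dlx3 acts in epidermal and hair differentiation. Of 19 hair shaft genes, 1 was higher and 3 were lower in tumors against skin. Between the grades 0 were higher, and Foxn1, Dlx3 and Krt84 were the 3 lower in undifferentiated/spindle than in poorly differentiated tumors.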

How the data were processed

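Total RNA from 20 mouse skin and tumor samples was hybridized to 1-color Affymetrix MOE430 2.0 arrays. The authors normalized the arrays by RMA, and the deposited values are log2 expression per probeset. No RMA version is named in the sources. Values entered the tests as deposited. Of 45101 probesets, 64 array controls were removed, and of the 45037 tested 34945 had 1 gene symbol in the platform annotation, 932 several and 9160 none. Probesets with several symbols named no gene. For each of 18193 genes the probeset with the highest mean was used. Values ran from 2.34 to 14.7, and the number of arrays limits the precision.

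Groups were compared with limma 3.58.1 in R 4.3.3 (lmFit and eBayes, two-sided tests), p-values were adjusted by the Benjamini-Hochberg method across genes with a threshold of 0.05, and the procedure was tested on simulated data. The study's methods used a t-test, run here as an alternative. The Hox genes were taken by name, but they and the other gene lists were chosen as subjects with earlier results of these data known. Per-array values were printed for called members without overlap between groups (up to 6 per direction), for Hoxa5, Hoxc8 and Hoxc13, and, outside that rule, for genes high in single arrays and for second probesets, which were picked after their values were seen. No 2 arrays were identical. Nothing in the labels states separate animals, so p-values measure only how far these samples spread, which may be technical. Promoter sequences came from RefSeq (GRCm38.p6). Alternatives were another probeset rule, median centering, a filter on dim genes, covariates, other tests, subsets of tumors and leaving out each array.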

Additional observations from a re-analysis of the deposited data

Results flagged for a closer look

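Within the 4 tissue classes, 17 of 132 sets of values (1 gene in 1 class) held an array far from the others by Dixon's 95% critical value, which chance alone gives in about 1 in 20. They concerned 13 genes. In normal skin, sample 1 was high in Hoxa9 (7.09) and Hoxa11 (5.12).

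Among poorly differentiated tumors, Rb/Trp53 tumor 6 was high in Hoxa4 (3.83) and Trp53 tumor 4 was high in Hoxc10 (3.99) and Hoxd12 (4.03), each within the dim range.

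Among undifferentiated/spindle tumors, Rb/Trp53 tumor 3 was high in Hoxa9 (6.93) and Hoxb9 (6.10). Rb/Trp53 tumor 1 was low in Hoxb3 (5.75) and high in Hoxc13 (5.22). Trp53 tumor 1 was high in Hoxa4 (4.29) and Trp53 tumor 2 in Hoxc10 (8.76).

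Among mixed tumors, Rb/Trp53 tumor 4 was high in Hoxa2 (5.31) and Hoxa7 (8.22), the latter being the value inside the range of skin. Trp53 tumor 5 was low in Hoxb2 (5.50), Hoxb4 (5.56) and Hoxc9 (6.17). Trp53 tumor 3 was high in Hoxc13 (7.46), above all skin samples.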

How the results depend on the processing

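Over the named Hox results, leaving out 1 array kept direction and call in 666 fits, lost the call in 67 and gained it in 6, and the other alternatives kept both in 265, lost the call in 67, gained it in 8 and turned the direction in 7. For tumors against skin (1 higher, 8 lower) the higher count was 0 in Rb/Trp53 or Trp53 tumors alone, with arrays centered on their median, without dim genes, at the methods' strict threshold with limma or the t-test, with the median or the most variable probeset (chosen after seeing the data), with the replicate block and by the methods' t-test at 0.05. The lower count was 3 without dim genes, where only 5 members are tested, and 0 at the strict threshold with either test. It was 4 to 9 when 1 array was left out, and the higher count 0 to 1. By the methods' t-test at 0.05, Hoxa11 and Hoxd12 were not called (adjusted p = 0.11 for each), and Hoxc13 was (adjusted p = 0.0055). For the grades (7 higher, 1 lower) the higher count was 4 with the Actb covariate, 3 in Rb/Trp53 tumors alone, 2 without dim genes and 3 with mixed tumors in the undifferentiated/spindle class, and the lower count was 0 in the last 2 settings. By the methods' t-test Hoxc8 (adjusted p = 0.078) and Hoxc9 (adjusted p = 0.083) were not called between the grades. By the equal-variance t-test Hoxc8 was not called (adjusted p = 0.056). Leaving out 1 array gave 6 to 7 higher and 1 lower. Against skin, poorly differentiated tumors (0 higher, 11 lower) had 4 lower without dim genes and 0 to 1 higher or 8 to 11 lower with 1 array left out. Undifferentiated/spindle tumors (0 higher, 3 lower) had 1 higher with the median of the probesets, and 0 to 1 higher or 2 to 5 lower with 1 array left out. Mixed tumors (1 higher, 6 lower) had 0 higher with centering or without dim genes, 3 lower without dim genes, and 0 to 1 higher or 5 to 7 lower with 1 array left out. The counts between genotypes were 0 throughout. Centering shifted the median of all genes from 0.02 to -0.08 for tumors against skin. Hoxa10 turned to -0.23 with the median and -0.63 with the most variable probeset against skin, and to -0.35 and -0.94 in mixed tumors. The Hoxa5 grade difference turned to 0.049 in Rb/Trp53 tumors alone, 0.49 with the median and 1.09 with the most variable probeset. The cause of these changes was not tested. The filter on dim genes left out members whose mean over all arrays was below 6.98, among them Hoxc8, Hoxc6 and Hoxc4, which were bright in some groups.

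Sample numbers in the labels did not pair the samples: 3 of 17 same-numbered pairs had deviations that correlated above 0.1. With the replicate block, 0 members were higher and 3 lower in tumors against skin, and 0 were called between the genotypes. Between the grades the block could not decide the calls. Only 1 sample number held both an undifferentiated/spindle and a poorly differentiated tumor, and these were of different genotypes. The blocked grade difference was therefore that between these tumors alone, 5.24 for Hoxc10 and 0.40 for Hoxc4. For the named Hox results, this fit is counted in the totals above.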
